A study of Mus musculus with 12 samples.

Results

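The Schlafen family members examined here were the 7 mouse genes Slfn1, Slfn2, Slfn3, Slfn4, Slfn5, Slfn8 and Slfn9. They were taken from the gene table by symbol, with 1 row per gene identifier, and make up 7 of its 40481 genes. All 7 were in the table, and 6 passed the filter on low values (at least 1 CPM, reads per M reads of the library, in at least 3 of 12 libraries). Slfn1 did not pass and was described by its reads only. RNA was measured in cultured mouse hematopoietic stem cells (HSCs), in 4 groups of 3 libraries. The groups were WT bone marrow, WT fetal liver, and both sources from mice with the ETV6-RUNX1 construct that the labels call iE/R. ETV6-RUNX1 is a fusion of a pair of transcription factors that is known from childhood B-cell leukemia. Fetal liver donors were E14.5 embryos and marrow donors were 8 weeks old. All 12 libraries, WT included, came from sorted cells kept for 3 days in expansion culture with 1 µg/mL doxycycline, so the drug and the culture are shared by every group. What drives the construct, the sex of donors and how many donors were pooled for a library are not given in the sources used here. Nothing in the labels says that the replicates came from separate animals or cultures, so p-values measure the spread between these libraries, which may be technical.

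Schlafen proteins are grouped by length. Slfn1 and Slfn2 are short, Slfn3 and Slfn4 are of intermediate length, and Slfn5, Slfn8 and Slfn9 are long forms that add a helicase-like region. The family is named after the German word for sleep, since Slfn1 slows the division of T cells when it is overproduced, and loss of Slfn2 function leaves T cells and monocytes unable to keep a resting state. Several members are known targets of type I interferon, which acts through the receptor chains Ifnar1 and Ifnar2, the kinases Jak1 and Tyk2, and a complex with Stat2 and Irf9 that binds the interferon-stimulated response element (ISRE) in promoters.

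The family sits in 1 cluster on chromosome 11 of the GRCm38 assembly, from 82951349 to 83286726, a stretch of 335 kb with 26 annotated genes, of which 8 are protein coding. In the order of the chromosome these are Slfn5, Slfn9, Slfn8, Slfn2, Slfn1, Slfn4, Slfn3 and Slfn14, with the pseudogene Slfn10-ps between Slfn8 and Slfn2. The 250 bases before the RefSeq start site of 4 members are printed because they hold, or lack, the ISRE letters GAAA and GAAA spaced by 2 bases. The search covered both strands of 300 bases from 250 before to 50 after each start. All bases are 5′ to 3′ on the strand of the gene (RefSeq, GRCm38.p6), and capitals mark an ISRE match. The windows are chr11:82951852-82952101 (plus strand) for Slfn5, chr11:83020811-83021060 (minus strand) for Slfn8, chr11:82991831-82992080 (minus strand) for Slfn9 and chr11:83064862-83065111 (plus strand) for Slfn2.
Slfn5: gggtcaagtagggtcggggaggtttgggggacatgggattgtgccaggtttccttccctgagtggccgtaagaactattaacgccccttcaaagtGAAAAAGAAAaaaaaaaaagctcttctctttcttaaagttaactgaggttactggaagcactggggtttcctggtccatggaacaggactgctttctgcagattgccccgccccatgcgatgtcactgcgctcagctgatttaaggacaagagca
Slfn8: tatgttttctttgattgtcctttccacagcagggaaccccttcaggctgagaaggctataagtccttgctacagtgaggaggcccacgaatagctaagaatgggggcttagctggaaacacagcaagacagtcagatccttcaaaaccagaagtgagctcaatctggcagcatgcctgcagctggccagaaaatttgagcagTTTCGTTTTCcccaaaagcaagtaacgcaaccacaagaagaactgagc
Slfn9: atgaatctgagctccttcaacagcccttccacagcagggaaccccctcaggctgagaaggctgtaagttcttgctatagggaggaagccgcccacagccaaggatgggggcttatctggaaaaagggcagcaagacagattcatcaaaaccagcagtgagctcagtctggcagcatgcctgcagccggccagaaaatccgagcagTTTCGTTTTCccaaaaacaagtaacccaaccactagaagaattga
Slfn2: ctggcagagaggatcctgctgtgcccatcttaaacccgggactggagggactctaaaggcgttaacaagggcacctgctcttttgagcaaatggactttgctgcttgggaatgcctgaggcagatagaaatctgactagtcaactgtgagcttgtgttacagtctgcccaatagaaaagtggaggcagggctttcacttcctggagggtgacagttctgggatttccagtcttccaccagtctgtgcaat
An ISRE match was found in 3 of the 7 members, and 3.99% of all 27025 genes with RefSeq promoter windows of this length hold one in at least 1 window. RefSeq gives 2 start sites for Slfn8, and positions are given from the one whose window is printed, then from the other. In Slfn5 the match GAAAAAGAAA ran from position -155 to -146 relative to the start site. Slfn8 and Slfn9 held the same 10 letters on the opposite strand, TTTCGTTTTC, from -48 to -39 in Slfn8 (-136 to -127 from its other start) and from -45 to -36 in Slfn9. The Slfn8 and Slfn9 windows were 80.4% identical over 255 aligned columns and shared a run of 20 bases, whereas the other pairs of printed windows were 44.5% to 51.3% identical. The gamma-activated letters TTCNNNGAA were in 0 of 7 members and in 9.55% of all genes. The RUNX letters TGTGGT were in 2 of 7, Slfn1 and Slfn8, and in 18.9% of all genes. In Slfn8 they lay from -19 to -14 (-107 to -102 from its other start), on the minus strand relative to the gene. A match is a stretch of letters and not a measured binding site.

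Library totals were 32.3 to 64.5 M reads, so that 3 reads, the floor used here, equal 0.0465 to 0.0928 CPM. Both genes joined in the fusion were higher in the libraries labelled ETV6-RUNX1. Runx1 lay at 218 to 244 CPM against 110 to 136 in WT fetal liver and at 143 to 194 against 86.7 to 105 in marrow. Etv6 lay at 174 to 185 against 103 to 149 and at 193 to 253 against 132 to 183. All 13 listed HSC and progenitor markers passed the filter, with a summed level of 2247 to 4772 CPM. The T and NK cell list summed to at most 4.35 CPM, with Cd3e at 0 in every library. The hepatocyte list summed to at most 38.7 CPM, with Serpina1a at 0 in every library.

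The Schlafen genes rose in ETV6-RUNX1 fetal liver cells, and a smaller set of them rose in marrow cells. In fetal liver all 6 members tested rose (limma, adjusted p under 0.05), with a median log2 fold change of 1.67 against 0.078 over the 14271 genes tested. Of those genes 43.1% were called in either direction and 24.8% were called higher. In marrow 3 of 6 rose, Slfn2, Slfn5 and Slfn8, with a median of 0.72 against 0.13, where 19.4% of genes were called and 14.4% were called higher. In bulk libraries a larger share of cells with a transcript and more transcript per cell cannot be told apart.

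**Figure D1:**
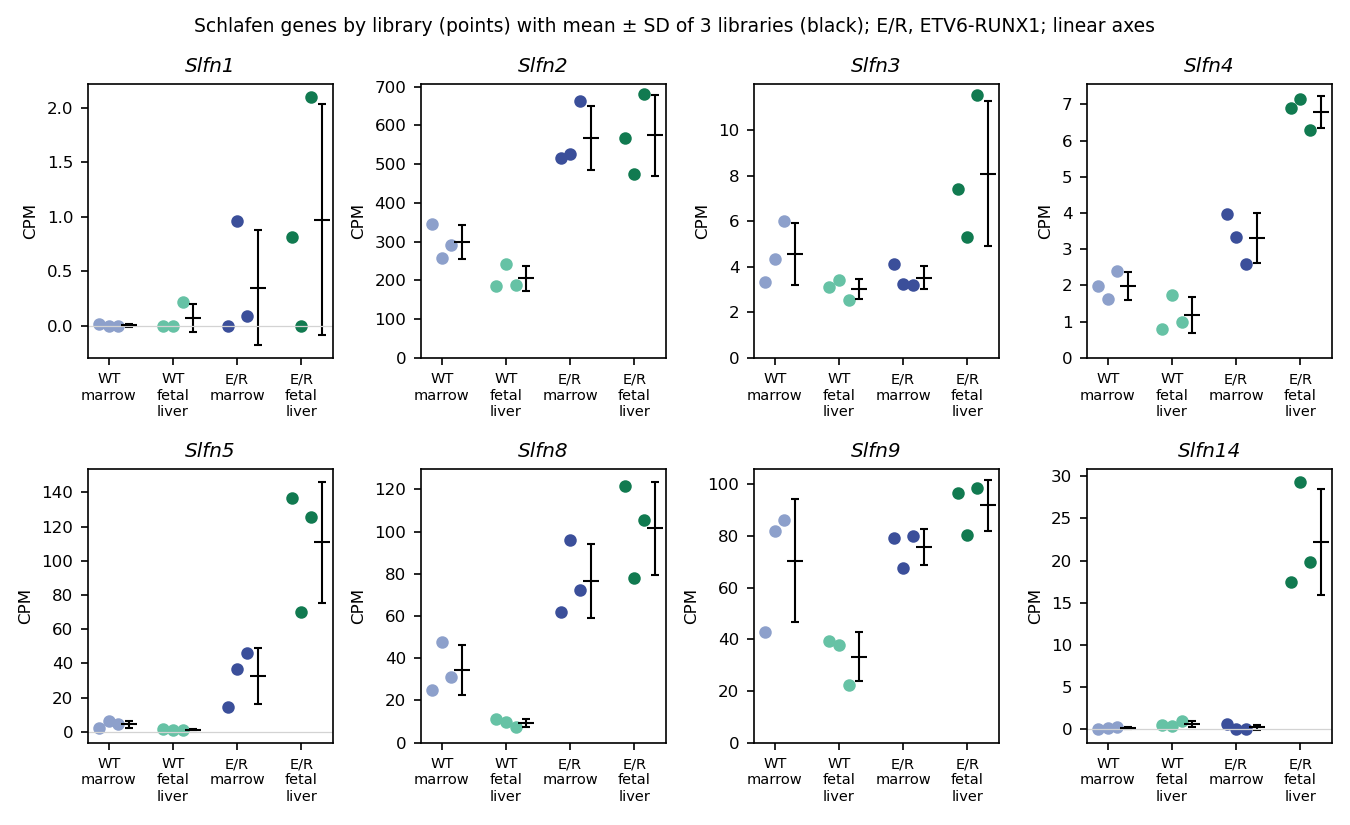
Level of each Schlafen member and of Slfn14 in CPM (vertical axis, linear, a scale of its own for each gene) in the 12 libraries (points) of the 4 groups, with the mean and SD of 3 libraries in black. In fetal liver every ETV6-RUNX1 library lies above every WT library for Slfn2, Slfn3, Slfn4, Slfn5, Slfn8 and Slfn9, as for 32.3% of genes tested. Those of Slfn14 do too, but Slfn14 passed the filter only through ETV6-RUNX1 fetal liver.

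Among the short forms, Slfn2 had the highest mean level of the members per kb of exon in every group. Its level was 186, 243 and 189 CPM in WT fetal liver replicates 1 to 3, and 568, 473 and 680 CPM in ETV6-RUNX1 fetal liver. In marrow it was 346, 258 and 291 CPM in WT and 515, 526 and 663 CPM in ETV6-RUNX1. In both sources the lowest ETV6-RUNX1 library was above the highest WT library. The log2 fold change of Slfn2 on log2(CPM + 1) was 1.47 ± 0.17 (SE, adjusted p = 1.16e-05) in fetal liver and 0.93 ± 0.17 (adjusted p = 0.00247) in marrow. The annotated antisense gene Gm20234 overlaps Slfn2 over 4927 bases, and it was not measured apart from Slfn2 here.

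Slfn1 was at or near 0 reads in most libraries. WT marrow libraries held 1, 0 and 0 reads, WT fetal liver 0, 0 and 14, ETV6-RUNX1 marrow 0, 31 and 3, and ETV6-RUNX1 fetal liver 39, 0 and 70. The highest level, 2.10 CPM, came from ETV6-RUNX1 fetal liver replicate 3, while replicate 2 of the same group held no read, so the groups overlapped. Tested without a filter, its fetal liver difference had an adjusted p of 0.211 (limma).

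The intermediate forms were low, and only their fetal liver difference passed the test. Slfn4, known from myeloid cells, stood at 0.80, 1.74 and 0.992 CPM in WT fetal liver and at 6.91, 7.15 and 6.30 CPM in ETV6-RUNX1 fetal liver. In marrow it stood at 1.98, 1.62 and 2.39 CPM in WT and 3.97, 3.34 and 2.60 CPM in ETV6-RUNX1. The groups did not overlap in either source, yet the marrow difference was not called. The log2 fold change of Slfn4 was 1.86 ± 0.21 (adjusted p = 9.66e-06) in fetal liver and 0.52 ± 0.21 (adjusted p = 0.0951) in marrow.

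Slfn3 stood at 3.11, 3.43 and 2.54 CPM in WT fetal liver and at 7.4, 5.30 and 11.5 CPM in ETV6-RUNX1 fetal liver. In marrow its libraries overlapped between genotypes, at 3.33, 4.32 and 6.0 CPM in WT and 4.11, 3.25 and 3.22 CPM in ETV6-RUNX1. Slfn3 thus was the member whose marrow mean was lower in ETV6-RUNX1, without passing the test. Its log2 fold change was 1.12 ± 0.25 (adjusted p = 0.00278) in fetal liver and -0.27 ± 0.25 (adjusted p = 0.475) in marrow.

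Slfn5, a nuclear long form induced by interferon, had the largest log2 fold change of the members in both sources. It stood at 1.69, 1.02 and 1.09 CPM in WT fetal liver and at 136, 70.1 and 125 CPM in ETV6-RUNX1 fetal liver, a ratio of means of 87.6. In marrow it stood at 2.25, 6.31 and 4.31 CPM in WT and at 14.6, 37.0 and 46.0 CPM in ETV6-RUNX1, a ratio of 7.59. No neighbouring groups overlapped in the order WT fetal liver, WT marrow, ETV6-RUNX1 marrow, ETV6-RUNX1 fetal liver. The log2 fold change of Slfn5 was 5.58 ± 0.39 (adjusted p = 8.15e-08) in fetal liver and 2.60 ± 0.39 (adjusted p = 0.000762) in marrow. These were the 35th and 40th highest of 14271 genes. The antisense gene Slfn5os shares 9333 bases with Slfn5 and held at most 12 reads in a library, against 3905 to 6496 reads of Slfn5 in ETV6-RUNX1 fetal liver.

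Slfn8, a long form of the interferon response, stood at 11.2, 9.72 and 7.34 CPM in WT fetal liver and at 122, 77.9 and 105 CPM in ETV6-RUNX1 fetal liver. In marrow it stood at 24.7, 47.5 and 30.9 CPM in WT and at 61.7, 96.0 and 72.3 CPM in ETV6-RUNX1. The genotypes did not overlap in either source, and the ratio of means was 10.8 in fetal liver and 2.23 in marrow. The log2 fold change of Slfn8 was 3.30 ± 0.25 (adjusted p = 1.59e-07) in fetal liver and 1.16 ± 0.25 (adjusted p = 0.00591) in marrow.

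Slfn9, the long form next to Slfn8 on the chromosome, rose in fetal liver, and its marrow libraries overlapped between genotypes. It stood at 39.4, 37.9 and 22.3 CPM in WT fetal liver and at 96.8, 80.5 and 98.4 CPM in ETV6-RUNX1 fetal liver. In marrow it stood at 42.9, 81.7 and 86.3 CPM in WT and at 79.2, 67.7 and 80.0 CPM in ETV6-RUNX1. WT marrow replicate 1 was well below the other WT marrow libraries. The log2 fold change of Slfn9 was 1.48 ± 0.25 (adjusted p = 0.000336) in fetal liver and 0.16 ± 0.25 (adjusted p = 0.677) in marrow. Without WT marrow replicate 1 the marrow value was -0.15, not called. Slfn8, Slfn9 and Slfn10-ps share transcript stretches: 3.39% of the 100-base stretches of Slfn8 and 3.71% of those of Slfn9 also occur in another gene of the family, mostly Slfn10-ps, so reads from these stretches are uncertain. Of 50-base stretches, 14.6% of Slfn8, 11.2% of Slfn9, 8.2% of Slfn4, 7.39% of Slfn3 and 4.27% of Slfn2 are shared in this way. The 50-base share was 0.606% for Slfn1 and 0% for Slfn5.

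In fetal liver all 6 calls held under each alternative in which the gene was tested. In marrow the call of Slfn2 was lost when an at least 2-fold change was required, and those of Slfn5 and Slfn8 held. Groups did not overlap, with ETV6-RUNX1 higher, for 6 of 6 members in fetal liver, where 32.3% of genes tested did so, and for Slfn2, Slfn4, Slfn5 and Slfn8 in marrow, where 23.6% did so.

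**Figure D2:**
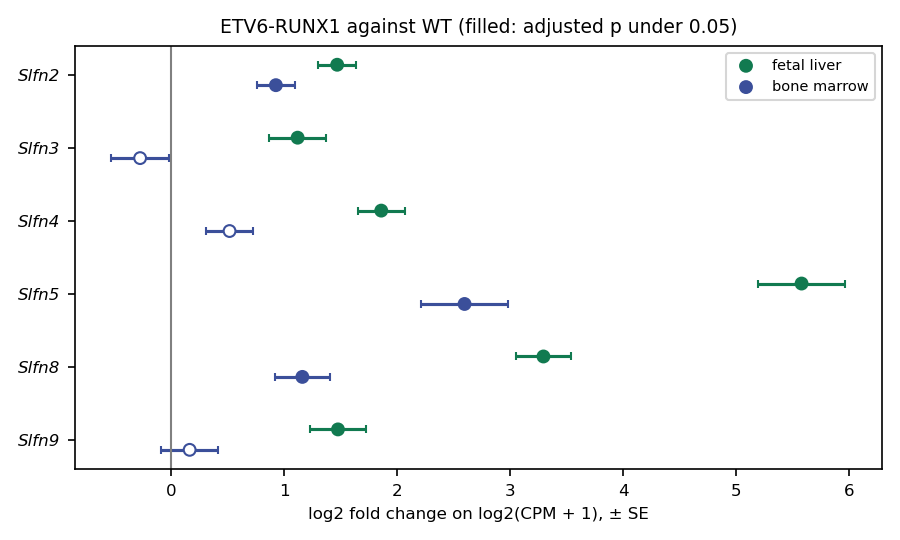
Log2 fold change of ETV6-RUNX1 against WT on log2(CPM + 1) with its SE (horizontal axis) for the 6 members tested, in fetal liver (green) and bone marrow (blue); filled points passed the adjusted p of 0.05. Slfn5 lies farthest to the right in both sources, at 5.58 and 2.60, and Slfn3 lies left of 0 in marrow, at -0.27.

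The genotype difference of 5 of the 6 members was greater in fetal liver cells, tested as the difference between both effects in 1 fit. Of all genes 9.19% were called in this test and 5.56% had a called positive value, and the median was 1.37 for the members against -0.053 for all genes. The difference was 2.98 ± 0.55 for Slfn5 (adjusted p = 0.00388), 2.13 ± 0.35 for Slfn8 (adjusted p = 0.0019) and 1.34 ± 0.29 for Slfn4 (adjusted p = 0.012). Slfn3, at 1.39 ± 0.36 (adjusted p = 0.0266), and Slfn9, at 1.31 ± 0.35 (adjusted p = 0.0337), stood closer to the threshold. Slfn2 was the exception, at 0.54 ± 0.24 (adjusted p = 0.162), so its rise was not shown to differ between the sources.

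These source differences held less firmly than the genotype calls within fetal liver. With the processed pseudogene fraction of each library as a covariate, which was 2.13% to 2.55% in ETV6-RUNX1 marrow and 1.23% to 1.91% in ETV6-RUNX1 fetal liver, all 5 calls were lost: Slfn5 2.69 (adjusted p = 0.0714), Slfn8 1.59 (adjusted p = 0.0597), Slfn4 1.29 (adjusted p = 0.0973), Slfn3 1.51 (adjusted p = 0.114) and Slfn9 0.69 (adjusted p = 0.402), while Slfn2 passed at 1.03 (adjusted p = 0.044). Without WT marrow replicate 2, WT marrow replicate 3, WT fetal liver replicate 3 or ETV6-RUNX1 fetal liver replicate 1, the calls of Slfn3 (1.41, 1.21, 1.30 and 1.42) and Slfn9 (1.17, 1.13, 1.06 and 1.27) were lost and 3 members remained. The call of Slfn9 was also lost without ETV6-RUNX1 marrow replicate 1 (1.347) or 2 (1.235), or ETV6-RUNX1 fetal liver replicate 3 (1.26). That of Slfn3 was also lost without ETV6-RUNX1 marrow replicate 3 (1.346). Of the alternatives run, 10 of 23 lost the call of Slfn9 and 7 of 22 that of Slfn3.

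Between sources the members had negative values in WT cells and positive values in ETV6-RUNX1 cells, except that the ETV6-RUNX1 value of Slfn2 was near 0 and turned to -0.16 with quantile normalization, and those of Slfn8 and Slfn9 turned to -0.048 and -0.24 when the pseudogene share was a covariate. In WT cells all 6 members tested had a negative fetal liver minus marrow value, with a median of -0.79 against -0.071 over all genes, and 2 were called, where 11.1% of genes were called and 7.77% were called lower. Slfn8 fell by 1.73 ± 0.25 on the log2 scale (adjusted p = 0.000354) and Slfn9 fell by 1.04 ± 0.25 (adjusted p = 0.0144) in WT fetal liver against WT marrow. The mean of Slfn8 was 9.41 ± 1.94 CPM (SD, n = 3) in WT fetal liver and 34.4 ± 11.8 CPM in WT marrow. The libraries of Slfn2, Slfn5, Slfn8 and Slfn9 did not overlap, each lower in fetal liver, as for 18.9% of genes. Slfn5 had a value of -1.16 ± 0.39 (adjusted p = 0.0709) and Slfn2 one of -0.53 ± 0.17 (adjusted p = 0.0557), just short of the threshold. Slfn5 passed in several alternatives, for example at -1.65 with DESeq2 (adjusted p = 0.0141). The call of Slfn9 was lost without WT marrow replicate 2 (-0.90), WT marrow replicate 3 (-0.86) or WT fetal liver replicate 3 (-0.78).

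In ETV6-RUNX1 cells 3 of 6 members were called higher in fetal liver than in marrow, where 28.6% of genes were called and 10.4% were called higher. The median was 0.63 for the members against -0.16 over all genes. Slfn5 was 1.82 ± 0.39 higher (adjusted p = 0.00308), at a mean of 111 ± 35.6 CPM in fetal liver and 32.5 ± 16.2 CPM in marrow. Slfn3 was 0.95 ± 0.25 higher (adjusted p = 0.0122) and Slfn4 was 0.87 ± 0.21 higher (adjusted p = 0.00684). The short form Slfn2 stood at nearly the same mean, 574 ± 104 CPM in fetal liver and 568 ± 82.5 CPM in marrow, a difference of 0.0087 ± 0.17 (adjusted p = 0.977). Slfn8, at 0.40 ± 0.25 (adjusted p = 0.241), and Slfn9, at 0.28 ± 0.25 (adjusted p = 0.441), were not called. The libraries of Slfn3, Slfn4, Slfn5 and Slfn9 did not overlap, each higher in fetal liver, as for 14.4% of genes. With the pseudogene share as a covariate the calls of Slfn5 (1.58), Slfn3 (1.05) and Slfn4 (0.83) were lost, and without ETV6-RUNX1 fetal liver replicate 3 that of Slfn3 was lost (0.69). The WT and ETV6-RUNX1 source comparisons share no library with each other, but each shares its libraries with the genotype comparisons above.

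**Figure D3:**
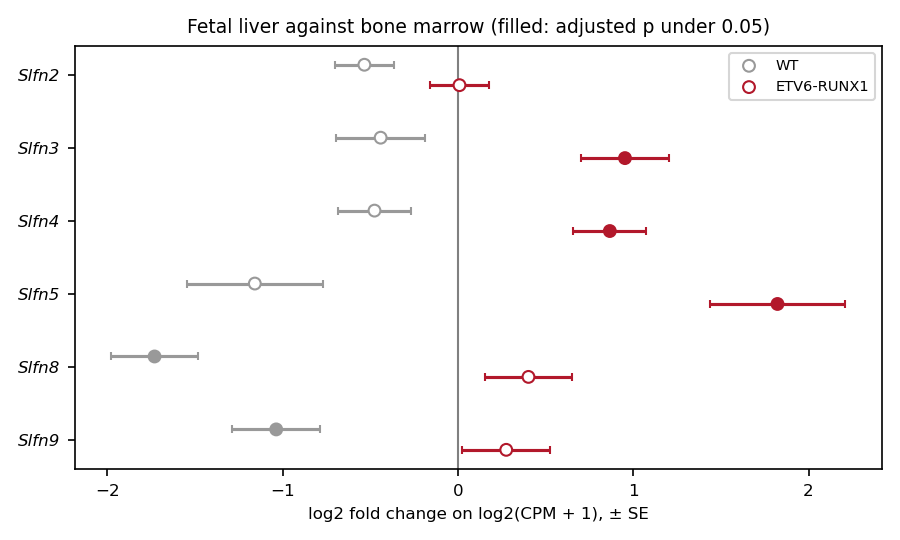
Log2 fold change of fetal liver against bone marrow on log2(CPM + 1) with its SE (horizontal axis) for the 6 members tested, in WT cells (grey) and ETV6-RUNX1 cells (red); filled points passed the adjusted p of 0.05. The 6 WT points lie left of 0, from -1.73 to -0.44, and the 6 ETV6-RUNX1 points lie between 0.0087 (Slfn2, which turned to -0.16 with quantile normalization) and 1.82.

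Within the family, Slfn2 took most of the reads in every group, and the share of Slfn5 grew in the ETV6-RUNX1 groups. The summed level of the 7 members was 223 to 297 CPM in WT fetal liver, 400 to 421 CPM in WT marrow, 679 to 867 CPM in ETV6-RUNX1 marrow and 714 to 1029 CPM in ETV6-RUNX1 fetal liver. Slfn2 made up a mean of 81.1%, 72.0%, 74.7% and 64.3% of these sums in the same order of groups, and Slfn5 a mean of 0.509%, 1.05%, 4.17% and 12.2%. Per kb of exon, which allows levels of different genes to be compared, Slfn2 stood at a mean of 345 CPM per kb in ETV6-RUNX1 fetal liver. Slfn8 stood at 24.8, Slfn5 at 17.5, Slfn9 at 15.4, Slfn3 at 2.37 and Slfn4 at 1.71 CPM per kb in the same libraries. In WT fetal liver Slfn5 stood at 0.200 CPM per kb, below Slfn9 at 5.57, Slfn8 at 2.30, Slfn3 at 0.888 and Slfn4 at 0.297. By group mean Slfn5 thus stood lowest of the 6 members tested there, and in ETV6-RUNX1 fetal liver Slfn2 and Slfn8 alone stood above it. Single libraries departed from this order. In WT fetal liver replicate 1 Slfn5 (0.267) was above Slfn4 (0.202), and in ETV6-RUNX1 fetal liver replicate 2 Slfn9 (13.5) was above Slfn5 (11.1).

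Of the other Schlafen genes of the cluster, Slfn10-ps also rose in ETV6-RUNX1 fetal liver, and Slfn14 was high in that group alone. Slfn10-ps, the pseudogene between Slfn8 and Slfn2, stood at 17.7, 14.9 and 10.3 CPM in WT fetal liver and at 58.8, 57.0 and 67.9 CPM in ETV6-RUNX1 fetal liver. Its log2 fold change was 2.05 ± 0.20 (adjusted p = 2.8e-06) there and 0.50 ± 0.20 (adjusted p = 0.0953) in marrow. Of the 100-base stretches of Slfn10-ps 7.84% also occur in another gene of the family, mostly Slfn9, and of its 50-base stretches 19.7%. Reads from these stretches are uncertain. Slfn14, a ribosome-cleaving ribonuclease known from platelets and red cell precursors, stood at 17.5, 29.4 and 19.9 CPM in ETV6-RUNX1 fetal liver and at no more than 1.04 CPM in each of the other 9 libraries. It passed the filter only through that group and so had to differ, and its levels are a description with no test. Slfnl1, a related gene on chromosome 4, stayed at or below 0.259 CPM and was not tested.

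Genes on either side of the cluster moved in both directions. Of 13 listed neighbours 8 were tested. In fetal liver Unc45b, Ap2b1 and Rffl rose and Nle1 and Rad51d fell, where 43.1% of all genes were called and 24.8% were called higher. The median over the 8 was -0.14, against 0.078 over all genes tested. Higher calls among the 8 numbered 2 with edgeR, 3 with DESeq2 and 1 with the pseudogene covariate. Unc45b, a myosin chaperone gene next to Slfn5, rose by 1.36 ± 0.26 in fetal liver and by 0.96 ± 0.26 in marrow (adjusted p = 0.0206). The marrow call of Unc45b was lost without WT marrow replicate 1 (0.88), ETV6-RUNX1 marrow replicate 2 (0.98) or replicate 3 (0.81). Nle1, on the other side of Unc45b, fell by 0.79 ± 0.16 on the log2 scale. For the difference between sources 0 of the 8 neighbours were called by limma, edgeR or DESeq2, and 2, 2 and 3 had an unadjusted p under 0.05. Limma called 9.19% of all genes in this test, so a count of 0 among 8 genes is near that share.

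**Figure D4:**
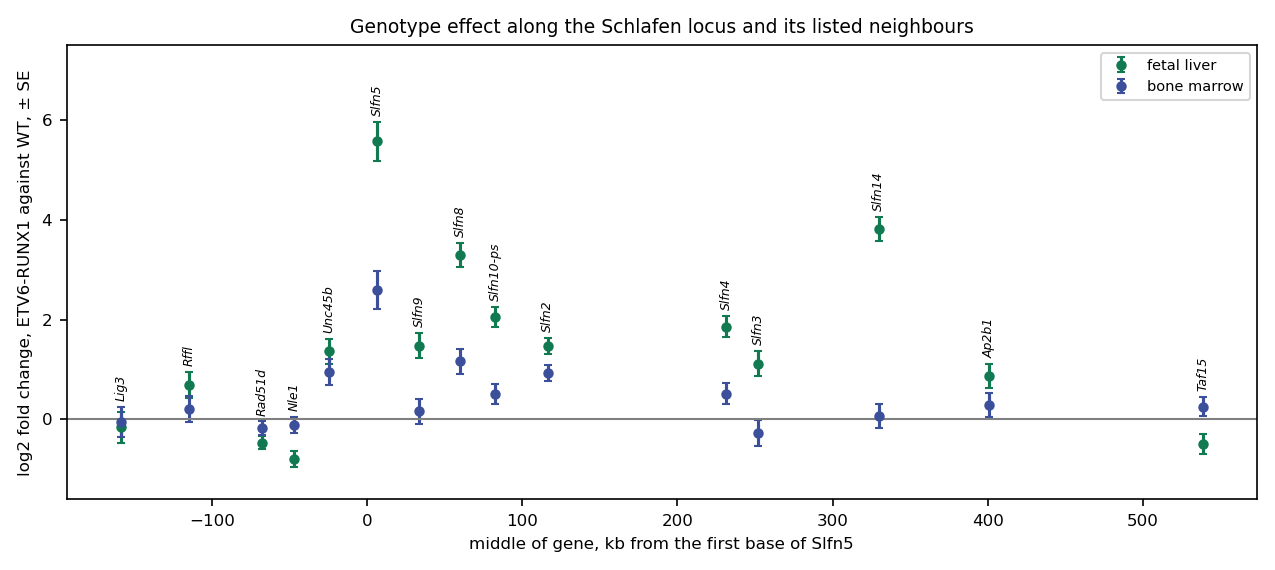
Log2 fold change of ETV6-RUNX1 against WT with its SE (vertical axis) for the tested Schlafen genes and 7 of the listed neighbours, placed by the distance of the middle of each gene from the first base of Slfn5 in kb (horizontal axis), in fetal liver (green) and bone marrow (blue). All 8 Schlafen genes shown lie above 1 in fetal liver (Slfn14 passed the filter only through ETV6-RUNX1 fetal liver), and of the 7 neighbours shown only Unc45b does.

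Markers of mature cells moved with some of these differences in fetal liver. The 8 monocyte and macrophage markers summed to 203 to 267 CPM in WT and 627 to 809 CPM in ETV6-RUNX1 fetal liver, with Lyz2 giving most of the sum and C1qa at 0 in both groups. Of 4 tested, Csf1r, Lyz2 and Adgre1 rose (2.59, 1.56 and 1.08). The 6 megakaryocyte markers summed to 3089 to 4575 CPM and 7221 to 7929 CPM, with Vwf, Gp1ba and Itga2b called higher and Gp9 called lower. The 6 erythroid markers summed to 80.8 to 102 CPM and 174 to 227 CPM. Of 4 tested, limma called 3 higher, Epor and Hbb-bs among them, while Klf1 had a value of -0.49 (adjusted p = 0.113). With edgeR 4 were called, 3 of them higher, and with DESeq2 3 were called, 2 of them higher. In marrow 0 genes of these 3 lists were called higher by limma without covariates or by edgeR, and 1 monocyte marker was by DESeq2. Of all genes tested 14.4% were called higher in marrow by limma. There 1 megakaryocyte marker was called lower by limma, and 1 was called higher with the pseudogene covariate. In the monocyte, megakaryocyte and erythroid lists 1, 2 and 1 genes had an unadjusted limma p under 0.05. The part of these cells in the fetal liver and marrow differences of Slfn4, Slfn14 and the other Schlafen genes was not tested.

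The remaining marker lists were small or showed few calls. In fetal liver 2 of 3 dendritic cell markers tested rose and 1 fell, 2 of 3 endothelial and stromal markers rose, 1 of 2 mast cell and basophil markers fell and 1 of 3 hepatocyte markers fell. Of the 2 neutrophil, 2 T and NK and 1 B cell markers tested, 0 were called there by limma, edgeR or DESeq2, and 1 neutrophil marker had an unadjusted p under 0.05. The 8 neutrophil markers summed to 18.3 to 21.1 CPM in WT fetal liver and 6.47 to 10.1 CPM in ETV6-RUNX1 fetal liver. In marrow they summed to 3.21 to 77.6 CPM in WT and 1.89 to 2.76 CPM in ETV6-RUNX1. There 1 of the 2 tested was called lower by limma, where 19.4% of all genes were called, and 0 with the pseudogene covariate. In the HSC and progenitor list 9 of 13 rose and 2 fell in fetal liver, with Cd48 at -3.04, Ly6a at 5.44, Slamf1 at 1.87 and Mecom at 2.12. In marrow 5 of 13 rose and 1 fell. Of all genes tested 24.8% were called higher in fetal liver and 14.4% in marrow.

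The interferon pathway genes were set beside the members, ordered from ligands to targets. Of 21 interferon genes listed, Ifnb1 alone passed the filter, only through ETV6-RUNX1 fetal liver, where it is high, so its levels are a description with no test. It held 4, 0 and 0 reads in the WT fetal liver libraries and stood at 2.5, 2.53 and 4.89 CPM in ETV6-RUNX1 fetal liver. ETV6-RUNX1 marrow libraries held 4, 10 and 4 reads of Ifnb1. Of the 13 Ifna genes listed, 7 had no read in any of the 12 libraries.

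Of the receptor and kinase genes 5 of 8 tested rose in fetal liver and 4 of 8 in marrow, beside 24.8% and 14.4% of all genes. The kinase Jak2 rose by 1.18 ± 0.15 in fetal liver, Tyk2 by 1.15 ± 0.25 and the receptor chain Ifnar1 by 0.83 ± 0.19. The downstream factors moved more, with 8 of 9 called higher in fetal liver and 6 of 9 in marrow. Stat2 rose by 4.10 ± 0.24 in fetal liver and 2.14 ± 0.24 in marrow, and Irf9 by 2.31 ± 0.17 and 1.04 ± 0.17. Irf7, the factor that amplifies interferon production, rose by 6.18 ± 0.45 and 3.13 ± 0.45. These 3 factors, like Slfn5 and Slfn8, had a larger effect in fetal liver than in marrow, with differences of 1.96, 1.27 and 3.05 that all passed the test. With the pseudogene covariate the calls of Stat2 (1.28) and Irf9 (1.08) were lost, and over all genes with reads that of Irf7 was lost (3.05, adjusted p = 0.0605). In WT cells 4 of 9 factors were called lower in fetal liver than in marrow and 1 was called higher. In that comparison 11.1% of all genes were called and 7.77% were called lower.

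Among the inhibitors of the pathway 2 of 6 rose in fetal liver and 3 of 6 in marrow, beside 24.8% and 14.4% of all genes. Usp18, which shuts down the type I receptor, rose by 4.72 ± 0.37 and 1.57 ± 0.37, and Socs3 by 1.15 ± 0.33 and 1.43 ± 0.33. The marrow call of Usp18 was lost without ETV6-RUNX1 marrow replicate 2 (1.31), and the fetal liver call of Socs3 without WT replicate 3 (0.98) or ETV6-RUNX1 replicate 3 (0.87). Socs1 had a value of 0.37 ± 0.19 in fetal liver (adjusted p = 0.131) and rose by 0.84 ± 0.19 in marrow. Genes tied to the resting state of cells, listed because the family is known for it, had 5 of 12 tested called higher in fetal liver and 3 of 12 in marrow. The shares of all genes called higher were 24.8% and 14.4%. The fetal liver count was 2 with the pseudogene covariate and 5 with edgeR or DESeq2. The marrow count was 1 with edgeR and 3 with DESeq2 or the covariate. The list included the cell cycle inhibitor Cdkn1b, at 1.31 ± 0.31 in fetal liver and 0.61 ± 0.31 (adjusted p = 0.184) in marrow, and the factor Foxo1, which rose by 0.84 ± 0.18 in fetal liver, with 0.38 ± 0.18 (adjusted p = 0.154) in marrow. For the difference between sources 0 of the 12 were called by limma, edgeR or DESeq2, and 0, 1 and 1 had an unadjusted p under 0.05. Limma called 9.19% of all genes in that test, so a count of 0 among 12 genes is near that share.

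**Figure D5:**
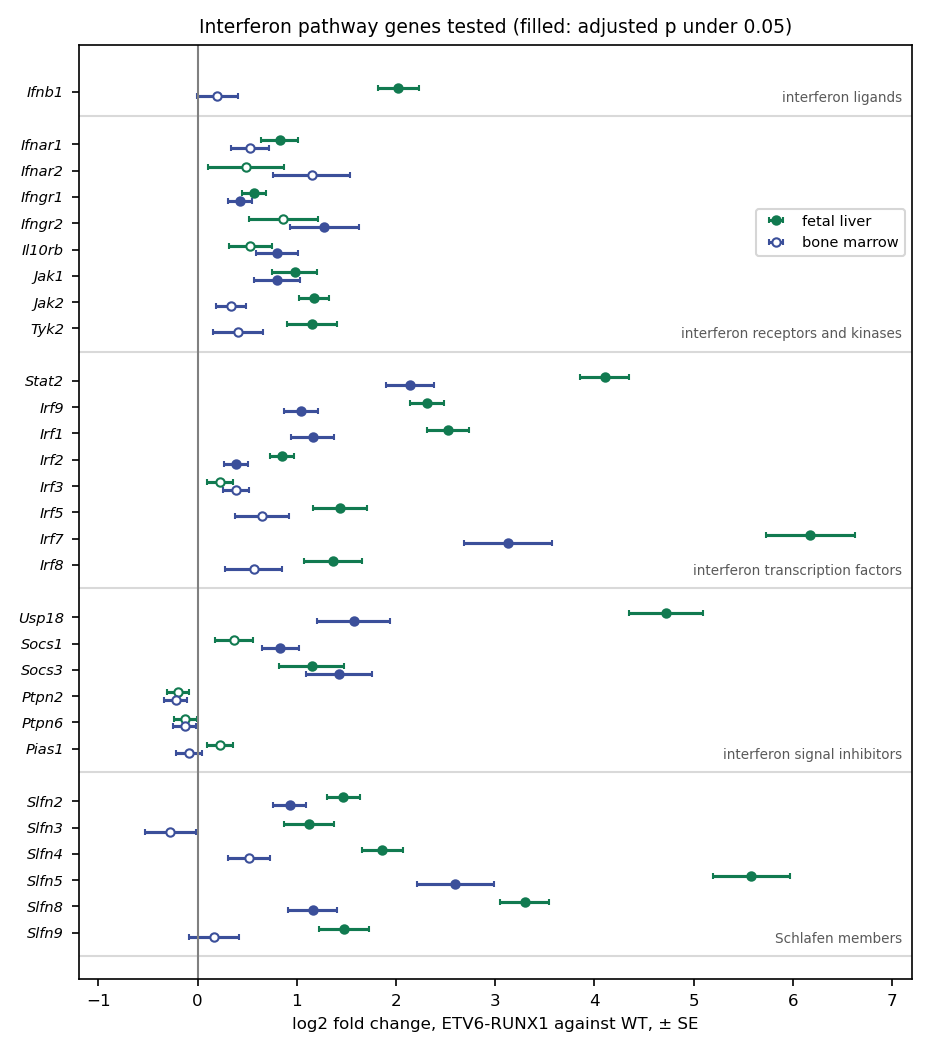
Log2 fold change of ETV6-RUNX1 against WT with its SE (horizontal axis) for tested genes of the interferon pathway lists and the Schlafen members, in fetal liver (green) and bone marrow (blue); filled points passed the adjusted p of 0.05, where Ifnb1 entered only through the group in which it is high. Irf7 lies farthest to the right in fetal liver, at 6.18, followed by Slfn5 at 5.58 and Usp18 at 4.72.

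The members resembled each other to different degrees across the 12 libraries. As a description, Pearson's r of log2(CPM + 1) between members ran from 0.53 for Slfn2 with Slfn3 to 0.93 for Slfn5 with Slfn8, and the 12 points share their group structure. The genes most like Slfn5 among all genes tested were Trafd1, Parp10 and Herc6, with r of 0.995, 0.994 and 0.993. Those most like Slfn8 were Oas3, Tnfsf10 and Nectin4 (0.990, 0.990 and 0.988). Slfn9 was most like Cyld, Xrn1 and Scaper (0.960, 0.960 and 0.957), and Slfn2 was most like Usb1, Apol10b and Serpinh1 (0.972, 0.970 and 0.969). The intermediate forms had other neighbours, with Dapk1, Slc40a1 and Tox for Slfn4 (0.965, 0.961 and 0.961) and Fam167a, Magi3 and Atp1b2 for Slfn3 (0.957, 0.925 and 0.911).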

How the data were processed

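RNA was sequenced in 12 libraries in 4 groups of 3. Per the labels' protocols, total RNA was purified with a single-cell kit, turned into stranded libraries with a low-input kit and sequenced from both ends. The submitters' processing notes name STAR 2.5.1a, featureCounts 1.4.6-p5, Salmon 0.8.2, edgeR, limma and GRCm38. How strand was used in counting and the annotation release are not given in the sources used here. The authors deposited 1 table of CPM values, which were whole multiples of a step in each library, so 100% of values gave whole reads (tolerance 0.01 read). Of 40757 entries 276 repeated a gene and were kept once, which left 40481 genes. Positions, exon lengths and transcripts came from GENCODE M21 (GRCm38), which held 99.44% of the gene identifiers, and promoters came from RefSeq (7 of 7 members matched).

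Values were tested as log2(CPM + 1) for the 14271 genes that reached 1 CPM in 3 or more libraries, with limma 3.58.1 (lmFit, eBayes with a trend, two-sided, 8 residual degrees of freedom) over all 12 libraries, without covariates. P-values were adjusted by the Benjamini-Hochberg method over all genes tested, with a threshold of 0.05. A fold change on this scale understates the change of low genes. Floors cover counting error only. The 5 comparisons were the genotype effect in each source, the difference between these effects, and the source effect in each genotype. As alternatives, the pseudocount was set to 0.1, the filter was dropped (29278 genes) or raised to a mean of 5 CPM (10648 genes), and values were rescaled by median of ratios or by quantiles. The fit was also run with the replicate block, with array weights, on the 6 compared libraries alone, with a 2-fold requirement and without each library in turn. Recovered reads were tested with edgeR 4.0.16 (TMM) and DESeq2 1.42.0. A covariate for the processed pseudogene fraction was chosen after seeing the data. The limma script was tested on simulated data. All members are named in each comparison. Lists are given by counts with at most 4 named genes, those with the smallest p in fetal liver, and further marker and neighbouring genes were named after their values were seen. Counts and sums cover whole lists, of which some genes are not reported here by name or drawn. For each member the 3 genes with the highest r are named. The members and lists were chosen with earlier results of these data known.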

Additional observations from a re-analysis of the deposited data

Results flagged for a closer look

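The ETV6-RUNX1 effect differed between fetal liver and marrow, by limma's test of the difference itself, for 6 Schlafen genes. Of all genes tested 9.19% were called in this test, and 5.56% had a called positive value. On the log2 scale the fetal liver effect exceeded the marrow effect by 2.98 for Slfn5, 2.13 for Slfn8, 1.55 for Slfn10-ps, 1.39 for Slfn3, 1.34 for Slfn4 and 1.31 for Slfn9. In each of the 6 the ETV6-RUNX1 libraries of fetal liver lay above all WT libraries of fetal liver, as for 32.3% of genes tested. These are libraries that the test also used, so this is no separate support. With the pseudogene covariate the calls of all 6 were lost, among them Slfn10-ps at 1.07. For Slfn14 the value was 3.74, but it passed the filter only through ETV6-RUNX1 fetal liver, where it is high, so this is a description and no support. Groups of 3 libraries are too small for the check on single libraries that stand apart.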

How the results depend on the processing

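Of 30 member results, 13 kept their direction and side of the threshold under every alternative run, among them all 6 genotype effects in fetal liver (Slfn5 5.4 to 6.38, Slfn8 3.02 to 3.47, Slfn2 1.34 to 1.71). Members called for the difference between sources numbered 5, and 2 over all genes with reads, 3 with the filter at a mean of 5 CPM, which leaves 4 members tested, 1 with the pseudogene covariate and 3 to 5 with a library left out. In the source comparison of WT cells 2 became 1 over all genes with reads and 1 to 3 with a library left out. In that of ETV6-RUNX1 cells 3 became 1 with that filter, 1 at 2-fold, 0 with the covariate (limma, 3 with an unadjusted p under 0.05) and 2 to 3 with a library left out.

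Of all genes, the 6151 called in fetal liver became 2176 at 2-fold and 4666 to 5626 with a library left out. The 2763 in marrow became 1601 with only 6 libraries, 901 at 2-fold and 1520 to 2924. The 1311 for the difference became 767 over all genes with reads, 3637 with array weights, 543 with the covariate and 731 to 2332. The 1591 of WT cells became 4401 with array weights, 776 at 2-fold and 868 to 2781, and the 4088 of ETV6-RUNX1 cells became 1539 at 2-fold and 2831 to 3835. The share of higher calls was 57.6% in fetal liver and 42.0% with quantile normalization, 74.5% in marrow and 48.5% to 53.0% with the 4 other scalings, and 36.3% for ETV6-RUNX1 sources and 47.3% to 57.9%. For the difference it was 60.6%, 73.8% with median-of-ratios scaling, 46.4% with array weights, which turns the majority, and 51.2% to 73.5% with a library left out (lowest without ETV6-RUNX1 fetal liver replicate 3), and for WT sources 30.3% and up to 41.5%. The largest move of the median of all genes was from 0.078 to -0.10 in fetal liver, with quantile normalization.

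Reversed values, none of them called, were Slfn9 in marrow (-0.054 with array weights, -0.031 with edgeR, -0.019 with DESeq2, -0.15 to 0.34 with a library left out, the lowest without WT marrow replicate 1), Slfn14 in marrow (-0.13 to 0.21, the lowest without ETV6-RUNX1 marrow replicate 1), Pias1 in marrow (0.065 with the covariate), Slfn2 between ETV6-RUNX1 sources (-0.16 with quantile normalization, -0.12 to 0.14 with a library left out), and Slfn8 and Slfn9 between ETV6-RUNX1 sources (-0.048 and -0.24 with the covariate). The cause was not tested. Same-numbered libraries deviated with r of -0.44 to 0.39, above 0.1 in 7 of 18 pairs, and 1 of 12 libraries correlated best with its own number. Groups of 3 libraries are too small for these values to show whether the numbers pair the libraries. The main fit did not use the numbers. With the replicate block 5838, 2334, 1033, 1425 and 3739 genes were called in the 5 comparisons, and of the members Slfn9 alone lost a call (difference between sources 1.31, adjusted p = 0.06). In the 6 of 12 libraries with no read of Slfn1, depth allows a level of up to 0.0502 to 0.0811 CPM (3 reads).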
